A study of Mus musculus with 48 samples.

Results

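The 48 genes described here code for parts of the T cell receptor signalling pathway, from the receptor complex and the coreceptors to the NF-kB, PI3K and calcium branches. A peak of accessible chromatin was given to a gene when it overlapped the body of that protein-coding gene, or otherwise lay nearest to it within 100 kb. Genes without a peak under this rule were left out, and the 48 genes together held 506 of the 53868 peaks measured (0.939%). The genes were listed by their known role in the pathway, but with earlier results of these data known.

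The assay was ATAC-seq, in which a transposase inserts sequencing adapters into open chromatin. OT-1 CD8 T cells, which recognise an ovalbumin peptide, expressed Cas9 and carried the congenic marker CD45.1. They received a guide RNA from a lentiviral vector with an ametrine reporter and were transferred into young or aged mice that were given B16-OVA melanoma, and 15 days after tumour inoculation 4 states were sorted from the tumours by Slamf6 and Tim-3. Each library came from 5000 to 50000 cells pooled from several mice.

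The 48 libraries form 21 groups, 15 of 2 libraries and 6 of 3. The guides were OTC (the control, named only as in the labels), Zfp219 and Dusp5, and the labels describe the last pair as knockouts. Both Tprog and Ttran cells were sorted as Slamf6+, Tprog without Tim-3 and Ttran with it. Of the Slamf6- cells, those with Tim-3 were Tterm and those without it Ttad. The labels call Ttad an age-associated dysfunctional state, and its libraries used here all came from aged mice. Every group, OTC included, carried Cas9, the OT-1 receptor, a guide vector and the same tumour, so no group represents an unperturbed polyclonal T cell. The labels do not say which mice entered which pool, so p-values measure only the spread between these pools. Aged and young libraries carry separate runs of the same sample sheet numbers, and therefore the age of the host and the batch cannot be told apart.

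In a T cell, the kinase LCK, brought to the receptor by CD8 or CD4, phosphorylates the CD3 chains, and ZAP70 docks there and phosphorylates the adaptors LAT and SLP-76 (Lcp2). These adaptors gather PLCG1, VAV exchange factors and GRB2, and the signal splits into calcium entry through STIM1 and ORAI1 with calcineurin, a RAS arm through RASGRP1 and SOS1, and an NF-kB arm through protein kinase C theta (Prkcq), BCL10 and MALT1. The NF-kB arm releases REL-family factors from the inhibitor encoded by Nfkbia. In tumours, prolonged receptor stimulation is the classic driver of T cell exhaustion, which is why the accessibility of these genes across progenitor and terminal states is of interest.

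The sequences below are the 250 bases before a RefSeq start site (GRCm38, read 5′ to 3′ on the gene's strand) of the 4 members whose promoter peaks the results return to. For the NF-kB genes Rel (chr11:23770970-23771219, minus strand), Nfkbia (chr12:55492648-55492897, minus strand) and Nfkb2 (chr19:46304487-46304736, plus strand), capitals mark a match to the kappa-B motif (GGG, any 2 bases, then TTTCC) on either strand. For Trat1 (chr16:48772063-48772312, minus strand), which codes for a receptor-associated adaptor, capitals mark a match to CTTTGA, a core letter pattern of TCF factors.
Rel: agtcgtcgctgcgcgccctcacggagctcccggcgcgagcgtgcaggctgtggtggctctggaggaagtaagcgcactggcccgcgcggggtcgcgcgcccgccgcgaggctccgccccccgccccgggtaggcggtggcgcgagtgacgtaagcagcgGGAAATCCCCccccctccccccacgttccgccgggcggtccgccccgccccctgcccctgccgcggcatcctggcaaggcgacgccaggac
Nfkbia: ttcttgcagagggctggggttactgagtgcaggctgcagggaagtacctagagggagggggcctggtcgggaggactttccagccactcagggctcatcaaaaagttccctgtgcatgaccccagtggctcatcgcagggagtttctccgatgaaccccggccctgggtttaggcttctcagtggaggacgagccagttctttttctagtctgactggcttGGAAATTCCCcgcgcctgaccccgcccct
Nfkb2: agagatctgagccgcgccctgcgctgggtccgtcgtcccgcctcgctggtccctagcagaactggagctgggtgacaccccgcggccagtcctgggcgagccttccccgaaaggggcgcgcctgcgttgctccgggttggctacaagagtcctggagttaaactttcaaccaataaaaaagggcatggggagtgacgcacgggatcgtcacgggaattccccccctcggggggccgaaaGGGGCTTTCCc
Trat1: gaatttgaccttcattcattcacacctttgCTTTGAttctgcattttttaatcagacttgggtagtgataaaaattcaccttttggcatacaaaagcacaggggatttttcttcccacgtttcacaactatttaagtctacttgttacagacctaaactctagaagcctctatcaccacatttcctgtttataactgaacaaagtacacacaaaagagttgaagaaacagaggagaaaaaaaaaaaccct
Letter patterns were counted in RefSeq promoter windows that also run past the start site, so these windows are longer than the printed sequences. The kappa-B letters, in this order on either strand, occurred in 1.63% of 32851 such windows. They occurred in 5 of the 54 windows of members, which belong to Nfkb2, Nfkbia and Rel. CTTTGA is a common short pattern, found in 16% of all windows and in those of 9 members (Cd247, Cd3d, Fyn, Lcp2, Ptprc, Tec, Trat1, Txk and Zap70). Promoter windows were at hand for 37 of the 48 members, and 35 of these had a peak over the window, 37 peaks in all. A letter match describes the sequence and does not show binding.

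Reads in peaks ran from 5638413 to 16159054 in the aged and from 6589023 to 29942755 in the young libraries, with a median of 14691505. Values are the deposited signal, that is reads in a peak divided by a factor for the size of its library, and a gene's level is the sum over its peaks. Sums of different genes are not comparable, because genes differ in length and number of peaks. Members had a median of 9 peaks against 2 for all 15022 genes with a peak, and their peaks had a median mean signal of 147 against 93.9, so they are measured more precisely than most genes. All 6 CD8 T cell marker genes had peaks, with summed signal of 12113 to 18793 per library. Of these genes only Thy1 is not a member, and members had a peak by rule. Foxp3, Cd79a, Cd79b, Ms4a1, Csf1r, Lyz2, Adgre1, Tyr and Dct had no peak. Other markers on the same lists did have peaks: Zbtb7b (CD4 T cells), Pax5 (B cells), Cd14, Itgax and Spi1 (myeloid cells), Eomes, Klrb1c and Ncr1 (NK cells, the first of which T cells also use), and Mitf, Mlana, Pmel and Sox10 (melanoma). Of the sorting markers, 5 of 6 Slamf6 peaks were called higher and 4 of 5 Havcr2 (Tim-3) peaks lower in aged OTC Tprog than in Tterm. In ATAC-seq of sorted pools, a change in the mix of cells and a change within each cell cannot be told apart.

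**Figure D1:**
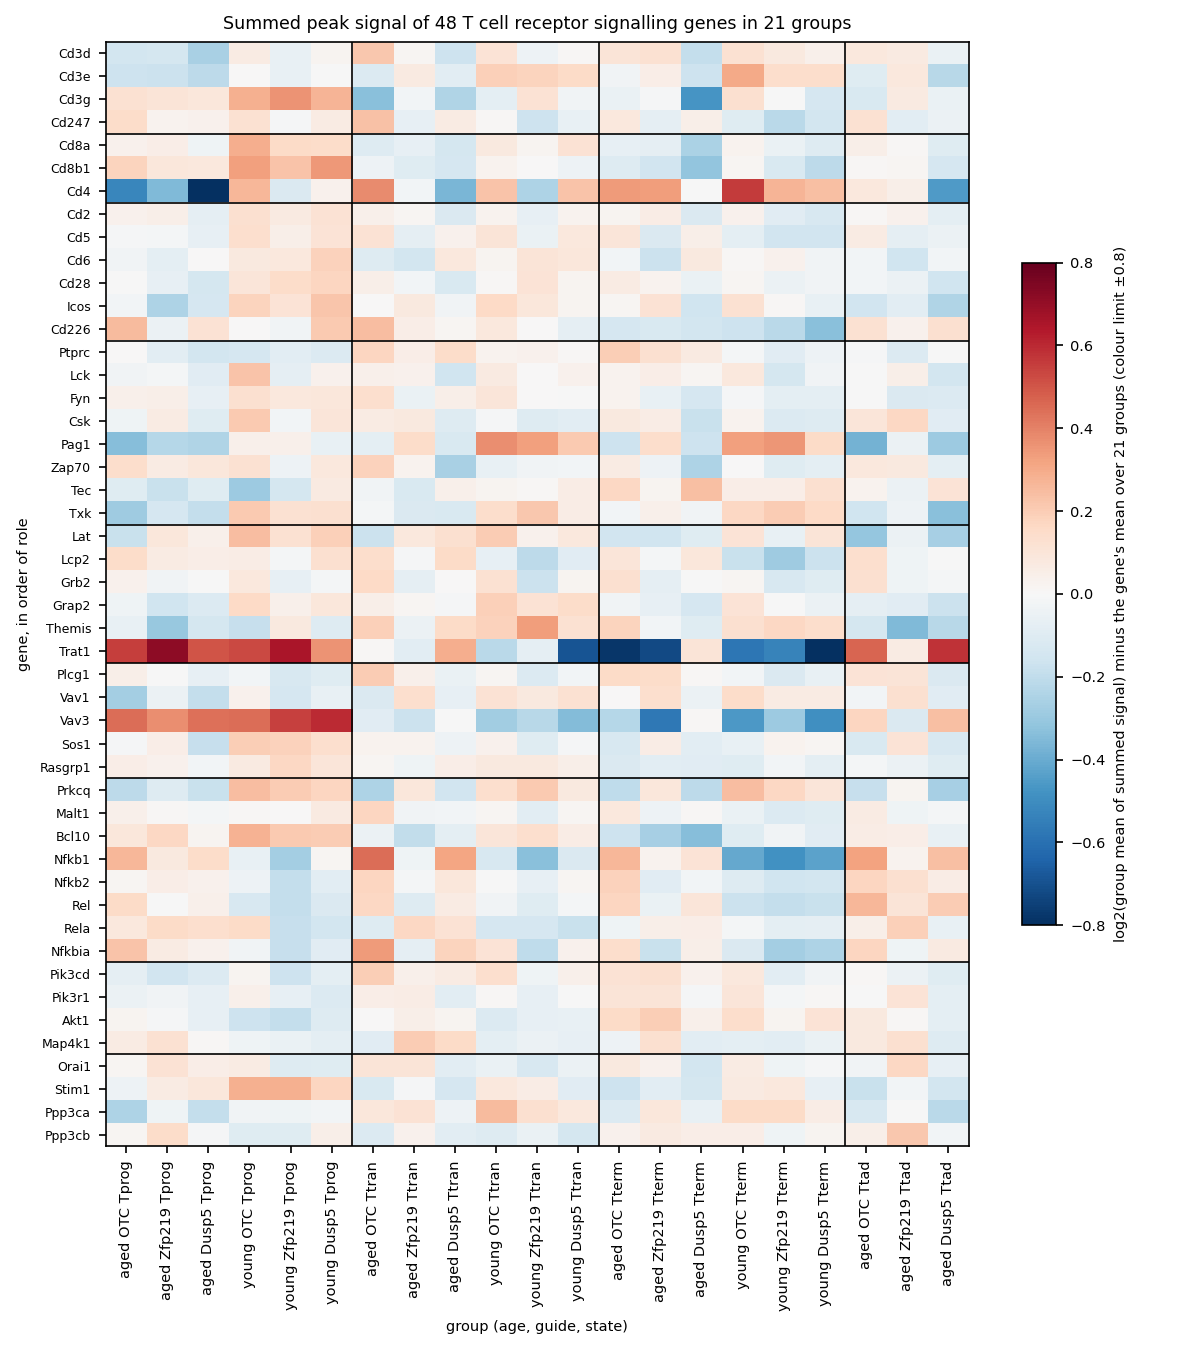
Summed peak signal of the 48 genes (rows, by role) in the 21 groups (columns), shown as the log2 group mean minus the gene's mean over groups, with the colour scale limited at 0.8. Most rows are pale, and Trat1, Cd4 and Vav3 vary most.

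Most members were open at a similar level in every group. The highest group mean of the gene sum was under 1.5-fold the lowest for 37 members, between 1.5-fold and 2-fold for 8 and above 2-fold for 3, with a median of 1.36-fold. The exceptions were Trat1 (3.64-fold), Cd4 (2.81-fold) and Vav3 (2.25-fold), the last a guanine nucleotide exchange factor. All 3 were among the members with the lowest mean sums. The strongest Trat1 peak had a mean signal of 57.2, below the median of 93.9 for all peaks. Whether low signal widened these folds was not tested. The folds over all genes are not given here, so the spread of the members has no outside comparison. Promoter peaks were strong and steady: the 37 promoter peaks of members had a median signal of 689 and a median SD of the group means of 0.144 on the log2 scale, against 122 and 0.340 for their 469 other peaks. The same contrast held over all genes, at 0.158 for 9074 promoter peaks and 0.398 for 42035 others, so it is no property of this pathway.

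Between the progenitor and the terminal state of OTC cells, the members with the clearest gain in Tprog were Trat1, Vav3 and Cd8b1, in both ages. Themis and Tec were lower in Tprog in both ages, though their Tprog and Tterm sums overlapped in some libraries of the other guides. In aged OTC cells 105 of 506 member peaks were called (20.8%, against 20.1% of all peaks), 57 higher in Tprog (8.88% of all peaks were) and 48 lower (11.2% of all). In young OTC cells 149 were called (29.4%, against 26.5%), 96 higher (13.9% of all) and 53 lower (12.6% of all). A peak or gene was called at an adjusted p under 0.05 in limma, with adjustment over all peaks or all genes. Without aged Tprog replicate 1, Tprog replicate 2 or Tterm replicate 2 the aged count fell to 68, 64 and 67.

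As gene sums, 19 members were called in aged cells against 25% of all genes, 6 higher (10.2% of all) and 13 lower (14.8% of all). In young cells 24 were called against 34.6%, 17 higher (16.9% of all) and 7 lower (17.7% of all). The aged split depends on scaling: quantile normalization gave 16 higher and 4 lower, and edgeR 8 and 10. Without aged Tprog replicate 2 the aged count was 12. Within the other guides the number of members called was 24 in aged Zfp219 (22.2% of all genes), 24 in young Zfp219 (33.4%), 15 in aged Dusp5 (26.9%) and 27 in young Dusp5 (36.9%).

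**Figure D2:**
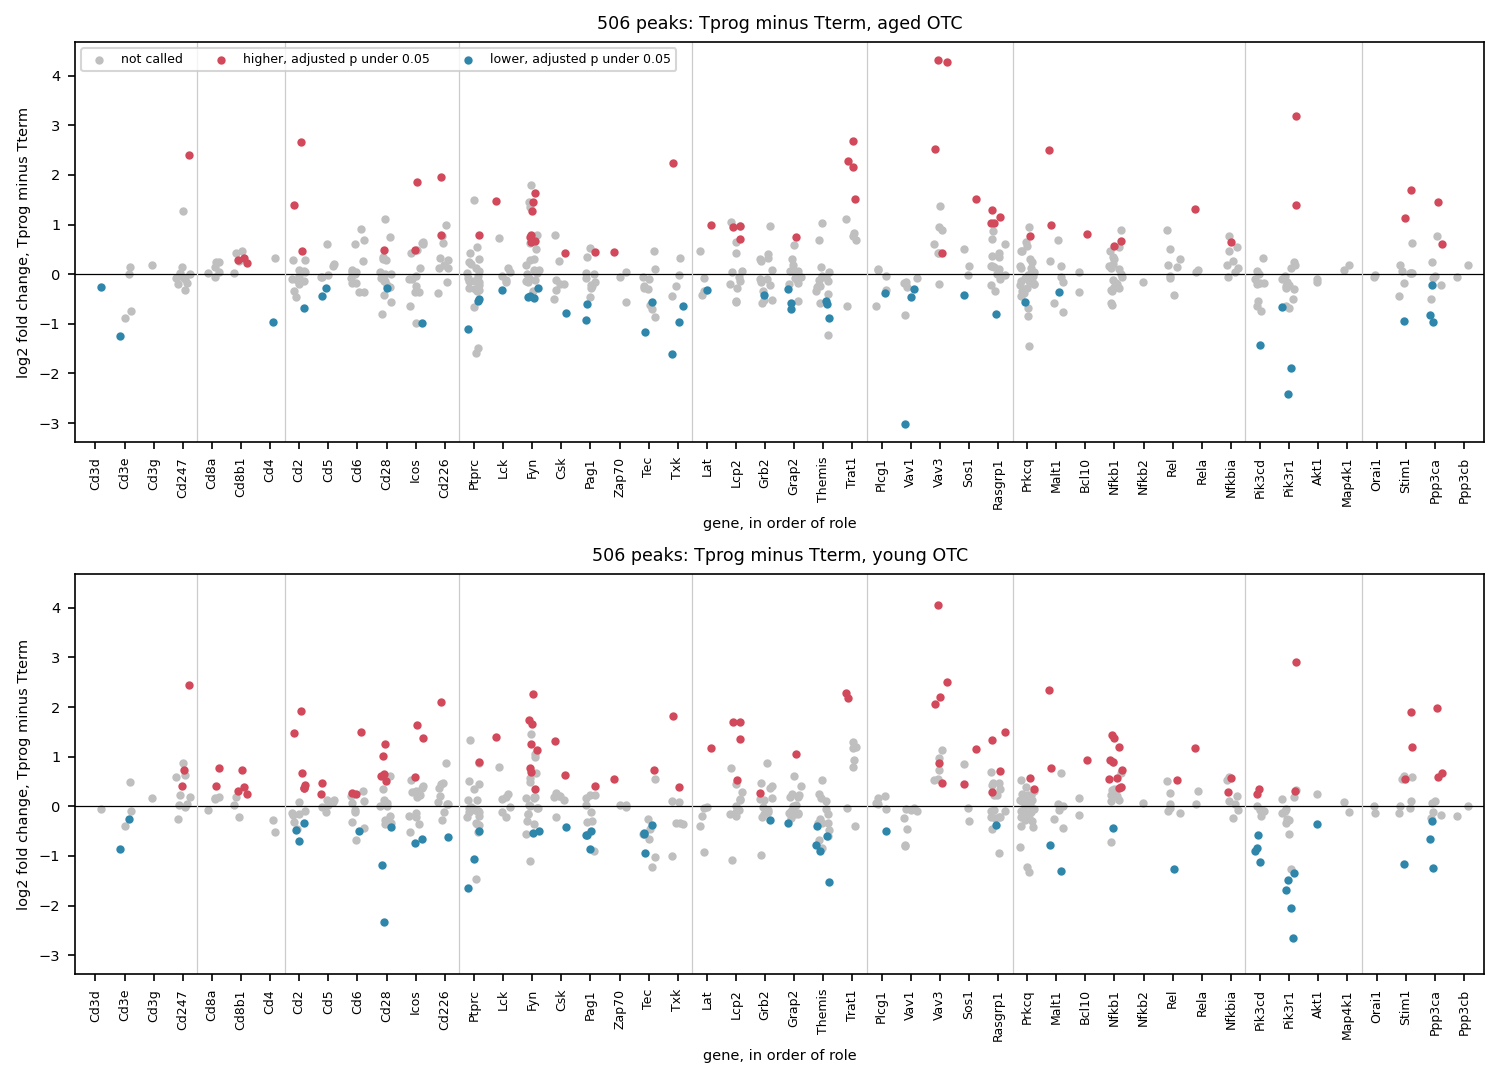
Log2 fold change of Tprog minus Tterm for each of the 506 peaks (points), by gene, in aged (top) and young (bottom) OTC libraries, with called peaks coloured. Called peaks lie on both sides of 0 for 18 genes in aged and 20 in young cells, and the called Vav3 and Trat1 peaks all lie above it.

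Trat1 (chr16:48730774-48810547, 9 peaks) codes for TRIM, an adaptor that associates with the receptor complex. Its summed signal was 368 and 344 in aged OTC Tprog, 345 and 326 in Ttad, 242 and 247 in Ttran, and 144 and 139 in Tterm. In young OTC it was 346 and 354 in Tprog, 197, 235 and 196 in Ttran, and 187, 142 and 159 in Tterm. The Tprog libraries were above every Tterm library in both ages, and aged Ttad overlapped Tprog. The log2 difference between Tprog and Tterm was 1.32 ± 0.18 (SE, adjusted p = 1.1e-09) in aged and 1.11 ± 0.17 (adjusted p = 1.52e-08) in young cells. Within the Zfp219 libraries it was 1.44 (aged) and 1.18 (young), and within the Dusp5 libraries 0.40 (aged, not called) and 1.504 (young). The promoter peak of Trat1 (chr16:48771923-48772729, over the sequence printed above) followed the same order, at 122 and 105 in aged Tprog, 63.7 and 62.8 in Ttad, and 32.7 and 15.6 in Tterm. Its Tprog minus Tterm difference was 2.27 ± 0.44 (SE) in aged and 2.18 ± 0.40 in young OTC cells on the log2 scale, and it was also called in the Zfp219 and Dusp5 libraries of both ages.

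Vav3 (chr3:109340465-109685694, 11 peaks) summed to 905 and 1091 in aged OTC Tprog against 593 and 656 in Tterm, and to 966 and 1022 against 519, 544 and 530 in young. The groups did not overlap, and the log2 differences were 0.67 ± 0.10 (SE, adjusted p = 2.73e-08) and 0.90 ± 0.09 (adjusted p = 3.27e-15). Within the gene, the peak at chr3:109420686-109421615 was near 0 in Tterm. It read 52.1 and 68.3 in aged Tprog against 0.0 and 8.2 in Tterm, and 63.8 and 61.6 against 0.0, 10.2 and 3.9 in young cells, while aged Ttad lay between at 15.1 and 29.6. Its log2 difference was 4.32 ± 0.80 (SE) in aged and 4.06 ± 0.73 in young cells, and between 3.42 and 4.24 within the other guides.

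Several peaks of this kind lay in genes whose sums changed little or the other way. In Pik3r1, which codes for the regulatory subunit of PI3 kinase, the peak at chr13:101713396-101714277 read 115 and 141 in aged Tprog against 6.5 and 25.7 in Tterm, and 129 and 86.4 against 11.4, 17.3 and 11.8 in young cells. Its log2 differences were 3.18 ± 0.53 (SE) and 2.90 ± 0.49. A second Pik3r1 peak, at chr13:101688835-101689169, went the other way in aged cells, at 11.3 and 14.2 in Tprog against 100 and 51.3 in Tterm. In Malt1, the protease of the BCL10 complex, the peak at chr18:65465201-65466155 read 301 and 327 in aged Tprog against 56.7 and 53.2 in Tterm, and 216 and 183 against 31.6, 51.9 and 34.3 in young cells. In Cd247, the zeta chain of the receptor, the peak at chr1:165837531-165838219 read 186 and 175 in aged Tprog against 28.3 and 39.4 in Tterm. These 3 peaks were called higher in Tprog in the libraries of all 3 guides in both ages. The sums of the genes differed by -0.15 and -0.05 for Pik3r1, -0.05 and 0.06 for Malt1, and 0.06 and 0.22 for Cd247 (aged, young; log2), of which the aged Pik3r1 and the young Cd247 values were called.

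Of the coreceptors, Cd8b1 (the CD8 beta chain, 7 peaks) summed to 3603 and 3399 in aged OTC Tprog against 2954 and 2812 in Tterm, and to 3974 and 3783 against 3077, 3129 and 3194 in young cells. The differences were 0.28 ± 0.05 and 0.31 ± 0.05 (SE, log2), called in both ages and in all 3 guides. Cd4, silent in mature CD8 T cells, had 2 peaks, the stronger with a mean signal of 349. Its sums were 260 and 240 in aged Tprog against 412 and 499 in Tterm, a difference of -0.85 ± 0.15. In young cells the difference was -0.29 and not called. Among the receptor chains, Cd3e was lower in young Tprog (-0.30) and Cd247 higher (0.22), and neither was called in aged cells (-0.14 and 0.06). Cd3d, measured by 1 peak, was called lower in aged Tprog (-0.25) and was not called in young cells (-0.05). That peak was also called lower in aged Zfp219 libraries, but not in aged Dusp5 libraries.

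Themis, an adaptor that shapes receptor signal strength, summed to 3033 and 3055 in aged Tprog against 3509 and 3657 in Tterm, and to 2775 and 2814 against 3480, 3522 and 3417 in young cells. The differences were -0.23 ± 0.05 and -0.31 ± 0.05 (SE, log2), though under quantile normalization the aged value was -0.11 (adjusted p = 0.106). In young Zfp219 libraries the Themis sums overlapped, at 3209 and 3498 in Tprog against 3459, 3625 and 3604 in Tterm. They also overlapped in aged Dusp5 libraries (2942 and 2802 against 3068 and 2874), but not in aged Zfp219 or young Dusp5 libraries. Tec, a TEC-family kinase, was lower by -0.26 and -0.34, and Pag1, a membrane adaptor that recruits the LCK inhibitor CSK, by -0.17 and -0.29. The aged Tec call was lost without aged Tprog replicate 1 (-0.20, adjusted p = 0.0745), and the aged Pag1 call in 5 of 12 alternatives. In young Dusp5 libraries the Tec sums overlapped, at 1782 and 1874 in Tprog against 1902, 1845 and 1967 in Tterm. They did not overlap in aged Dusp5 libraries or in Zfp219 libraries of either age. Cd226, a costimulatory receptor, was higher in Tprog by 0.39 in aged and 0.17 in young cells, the young call being lost in 6 of 13 alternatives. Bcl10 was higher by 0.25 and 0.38, and the aged difference was 0.03 when peaks outside the gene body were left out.

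Nfkb1, the p105 and p50 subunit of NF-kB, differed between the states in young OTC cells, and was not called in aged ones. Its sums in young OTC were 6652 and 6550 in Tprog, 6496, 6366 and 6003 in Ttran, and 5284, 4954 and 5262 in Tterm, a Tprog minus Tterm difference of 0.35 ± 0.03 (SE, log2) with 10 of 23 peaks higher and 1 lower. In aged OTC they were 8199 and 8333 in Tprog and 8182 and 8328 in Tterm, a difference of 0.00 with 2 peaks higher. Young Zfp219 and Dusp5 libraries gave 0.21 and 0.45, both called, and aged ones 0.05 and 0.03, not called. The difference between ages was not tested on the sum. By single peaks, the test of whether the Tprog minus Tterm difference changed with age called 10 member peaks (1.98%, against 2.32% of all), of which the peak at chr3:135698403-135698924 of Nfkb1 changed most.

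Ttran and Tterm were closer. In aged OTC 20 member peaks were called (against 3.22% of all) and in young OTC 40 (against 8.38%). With edgeR the aged calls were 12 higher and 1 lower, against 13 and 7, and with TMM scaling the young calls were 41 higher and 4 lower, against 31 and 9. Leaving out single libraries took these counts down to 5 (aged, without Tterm replicate 1; 10 without Tterm replicate 2 and 13 without Ttran replicate 2) and 24 (young, without Ttran replicate 2; 26 and 25 without Tterm replicates 2 and 3).

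In aged OTC libraries, Ttad cells, negative for both sorting markers, had more signal at Trat1 and less at Themis than Tterm. In aged Dusp5 libraries the Themis sums of Ttad and Tterm overlapped (2521 and 2916 against 3068 and 2874). Those of Trat1 did not (314 and 411 against 261 and 261), and in aged Zfp219 libraries neither gene overlapped. The Trat1 sums of Ttad overlapped those of Tprog in aged OTC but not in aged Zfp219 libraries, where Ttad had 245 and 264 and Tprog 397 and 403. The difference of the Trat1 sum between Ttad and Tprog was not tested, and that of its promoter peak was -0.83 ± 0.44 (SE, log2, adjusted p = 0.297). Against Tterm, 41 member peaks were called (7.28% of all peaks were), 19 higher (3.02% of all) and 22 lower (4.26% of all), and against Tprog 42 (6.55% of all). As gene sums 9 members were called against Tterm (12.1% of all genes), 5 higher (5.53%) and 4 lower (6.6%). These comparisons share the aged OTC Tterm and Tprog libraries with those above, so the values are given side by side only. Without Ttad replicate 1, Tterm replicate 1 or Tterm replicate 2 the count against Tterm was 18, 16 and 24, and without Tprog replicate 1, Tprog replicate 2 or Ttad replicate 1 the count against Tprog was 19, 16 and 19. The gene count was 5 without Ttad replicate 2 and 5 without Tterm replicate 2.

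Trat1 was higher in Ttad than in Tterm by 1.24 ± 0.18 (SE, log2), Vav3 by 0.40 ± 0.10 and Cd226 by 0.26 ± 0.07, while Themis was lower by -0.32 ± 0.05 and Ptprc, the CD45 phosphatase, by -0.20. The Vav3 call was lost without Ttad replicate 1 (0.34, adjusted p = 0.0752) and without Tterm replicate 1 (0.33, adjusted p = 0.1). The Cd226 sum was 0.16 (adjusted p = 0.286) without Tterm replicate 2. Of the 10 single peaks named by size for this comparison, those of Cd226 and Icos were called in every alternative. The Cd226 peak at chr18:89159037-89160197 read 198 and 171 in Ttad, 257 and 247 in Tprog, 185 and 128 in Ttran, and 68.6 and 59.6 in Tterm, so Tterm alone was low. The peak 2542 bp from Icos, a costimulatory receptor gene, at chr1:61002864-61003603 read 15.1 and 12.3 in Ttad against 52.3 and 55.9 in Tterm, 44.2 and 26.6 in Tprog, and 93.3 and 57.4 in Ttran, so Ttad was low (-1.91 ± 0.39 against Tterm).

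Between aged and young hosts, Nfkb1, Nfkbia and Rel were higher and Prkcq, Pag1, Grap2 and Lat lower in aged hosts in OTC libraries. The Lat sum was not called within Zfp219 libraries. More member peaks were called with age than in any other comparison made here. The age comparison averages 3 states and has smaller errors than those between single states, so these counts do not rank the size of the differences. Over Tprog, Ttran and Tterm of OTC cells (6 aged and 8 young libraries), 217 of 506 member peaks were called (42.9%, against 36.5% of all peaks), 89 higher (17.3% of all) and 128 lower (19.1% of all) in aged hosts. As gene sums, 30 of 48 members were called (62.5%, against 43% of all genes), 13 higher (21.8% of all) and 17 lower (21.2% of all). The median log2 difference of the member peaks was -0.06 against 0.00 for all peaks. Leaving out single libraries gave 201 to 213 peaks and 28 to 31 genes. Of 9 myeloid marker peaks (3 of 6 listed genes, with none at Csf1r, Lyz2 and Adgre1), 7 were called lower and none higher in aged hosts, with a summed signal of 959 to 1159 in aged and 1294 to 1487 in young OTC libraries. The part of these markers in the age differences was not tested.

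**Figure D3:**
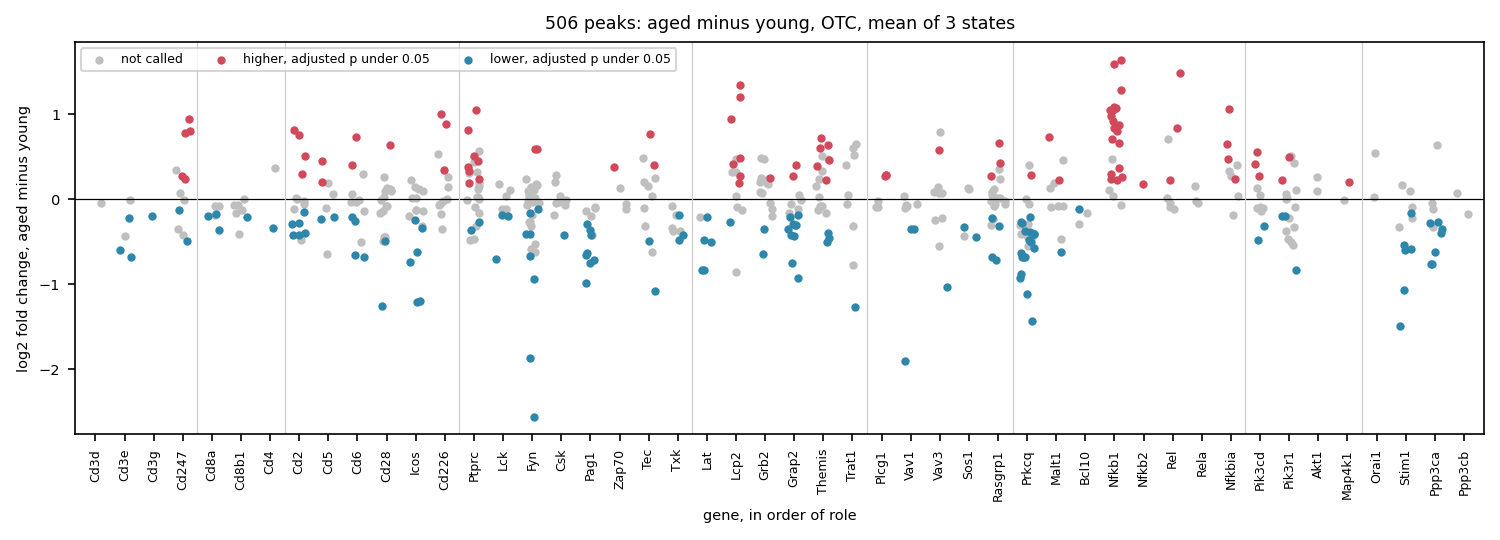
Log2 fold change of aged minus young for each of the 506 peaks (points), by gene, as the mean of 3 states in OTC libraries, with called peaks coloured. Of 23 Nfkb1 peaks 19 are called higher and none lower, and of 30 Prkcq peaks 18 are called lower and 1 higher.

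Within the NF-kB branch Nfkb1, Nfkb2, Rel and the inhibitor gene Nfkbia were higher in aged hosts, Prkcq was lower, and Rela did not pass the test. Nfkb1 (chr3:135584655-135691969) had a lowest, median and highest sum of 8182, 8330 and 9416 in the 6 aged OTC libraries and of 4954, 6185 and 6652 in the 8 young ones. No aged library overlapped a young one, and the log2 difference was 0.53 ± 0.02 (SE, adjusted p = 4.73e-51), with 19 of 23 peaks called higher. Nfkbia (chr12:55489409-55492647), which codes for the inhibitor IkB-alpha, ran from 5046 to 5900 in aged and from 4150 to 5172 in young libraries (medians 5425 and 4540), a difference of 0.25 ± 0.02. The ranges overlapped over all states, but within each of the 3 states every aged library was above every young one. Rel, which codes for c-Rel, ran from 2416 to 2683 against 1925 to 2253, with no overlap (0.27 ± 0.03). Nfkb2, measured by its promoter peak alone, ran from 2083 to 2446 against 1854 to 2202 (0.18). The Rela difference was -0.02 (adjusted p = 0.774).

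Prkcq (chr2:11171905-11301226), the protein kinase C isoform of the immune synapse, went the opposite way. Its sums were 4710, 4889 and 4965 (lowest, median, highest) in aged OTC libraries and 6122, 6590 and 6902 in young ones, which did not overlap. The difference was -0.43 ± 0.02 (SE, log2, adjusted p = 1.05e-40), with 18 of 30 peaks called lower and 1 higher. Bcl10 was also lower (-0.13), and Malt1 was higher (0.11). Over the whole NF-kB branch 30 of 87 peaks were called higher (17.3% of all peaks were) and 20 lower (19.1% of all).

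These age differences were also measured within the Zfp219 and the Dusp5 libraries, which share none with OTC; this comparison was chosen after the OTC values were seen. In Zfp219 libraries 166 member peaks were called (30.3% of all peaks were) and 34 members as sums (40.1% of all genes), and in Dusp5 libraries 202 peaks (31.8%) and 34 members (39.3%). Nfkb1 was higher by 0.39 and 0.36, with 17 and 16 peaks called higher and none lower, Nfkbia by 0.16 and 0.19, Rel by 0.10 and 0.17 and Nfkb2 by 0.12 and 0.11. Prkcq was lower by -0.17 and -0.29, Pag1 by -0.22 and -0.28, and all of these were called. Lat was -0.03 (not called) and -0.10, and Vav1 was 0.07 (not called) and -0.14. The library sheet separates the ages in all 3 guides, so these comparisons do not separate age from batch.

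**Figure D4:**
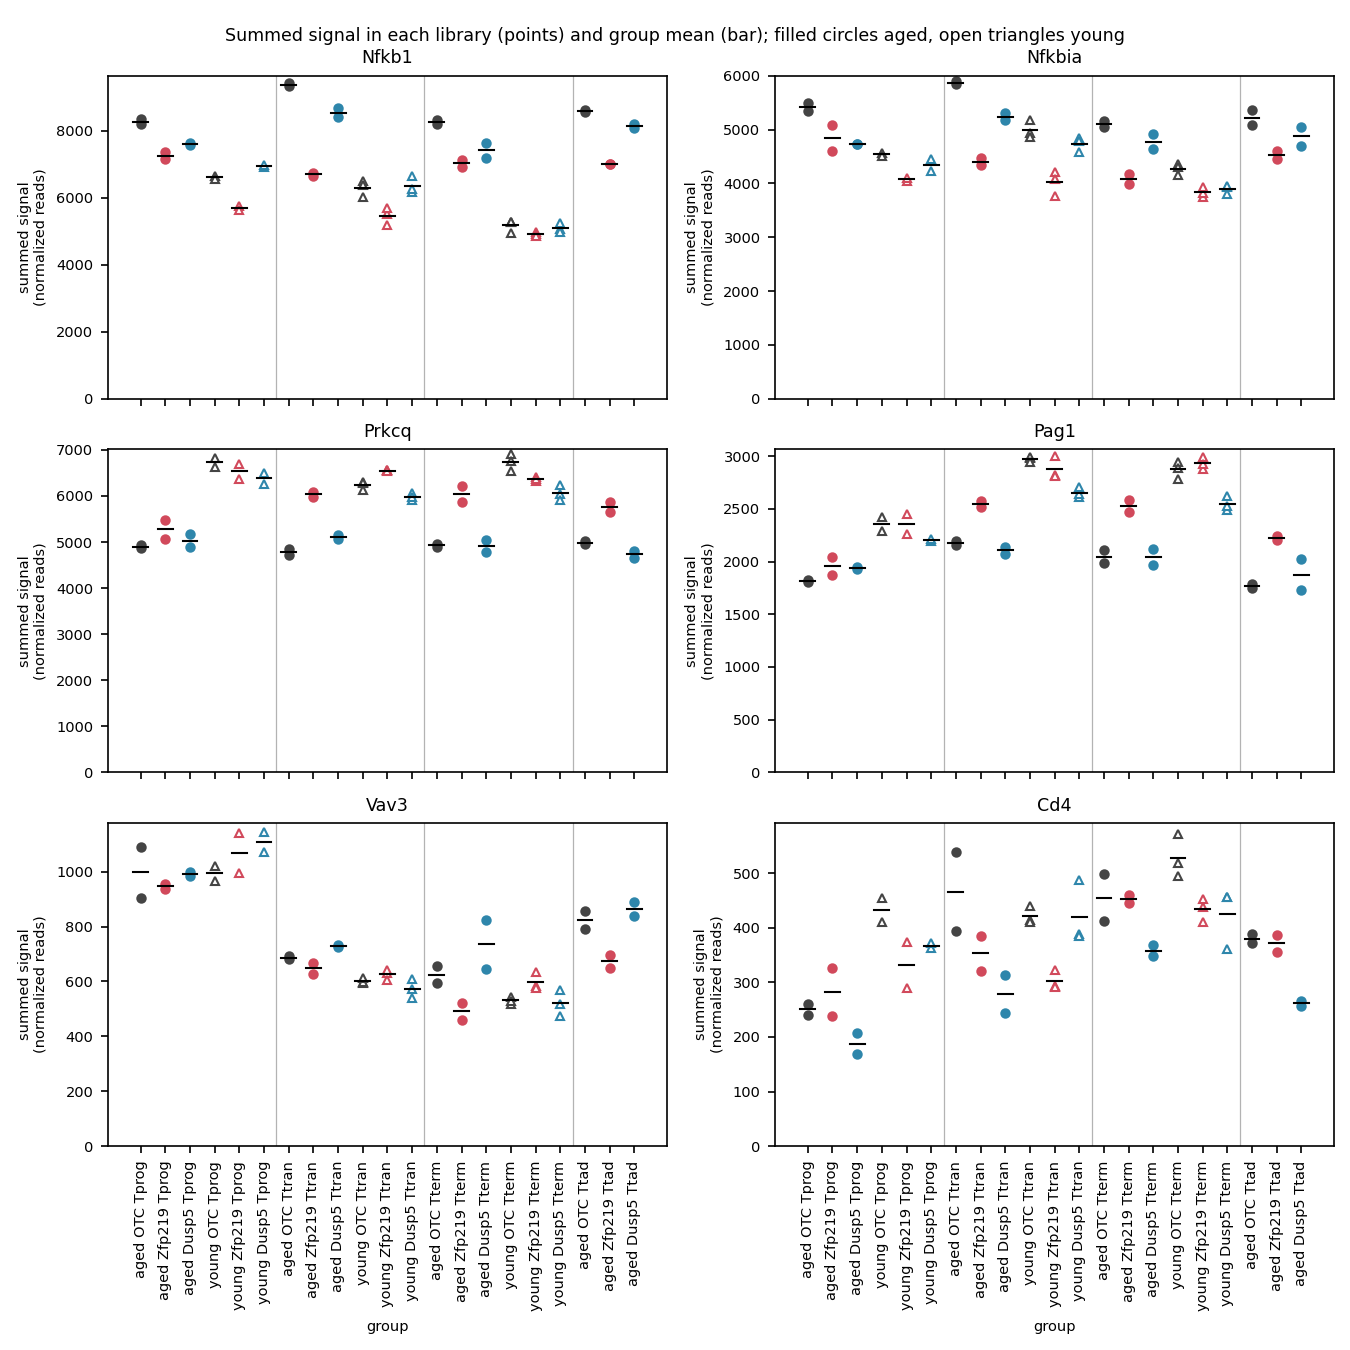
Summed signal (normalized reads, axes from 0) of Nfkb1, Nfkbia, Prkcq, Pag1, Vav3 and Cd4 in each library (points) with the group mean (bar), filled circles for aged and open triangles for young, coloured by guide. Aged OTC libraries of Nfkb1 sit between 8182 and 9416 and young ones between 4954 and 6652, with aged Zfp219 between them at 6654 to 7358.

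Of the 3 coreceptor genes all 3 were called lower in aged hosts, of the 4 receptor complex genes 2 lower and 1 higher, of the 6 adaptors 2 lower and 1 higher, and of the 8 proximal kinases and regulators 3 lower and 3 higher. Of the 6 costimulatory and accessory receptors 2 were lower and 1 higher, and of the 5 second messenger and exchange factors 1 lower and 2 higher. None of the 4 genes of the PI3K branch and Map4k1 was called. Of all genes 21.2% were called lower and 21.8% higher. Pag1 (chr3:9687479-9833684) ran from 1807 to 2197 in aged and from 2289 to 2991 in young OTC libraries, with no overlap, and was lower by -0.44 ± 0.03 (SE, log2) with 8 of 13 peaks lower and none higher. Lat (chr7:126363827-126369705), the central adaptor, ran from 1447 to 1523 against 1679 to 2048 and was lower by -0.35 ± 0.04 with 5 of 6 peaks lower. The only Lat peak in the gene body also overlaps Spns1, and its other peaks lie outside the gene, so signal of the neighbours cannot be told apart. Grap2, another adaptor gene, was lower by -0.16 ± 0.02 (SE, log2) with 10 of 17 peaks lower and 2 higher. Within Zfp219 libraries 8 of its peaks were lower and 2 higher, and within Dusp5 libraries 10 and 2. How the Grap2 sum fared under the alternatives is not reported here. Txk, a TEC-family kinase, was lower by -0.28, Cd3e by -0.27 and Cd3g by -0.20, while Cd247 was higher by 0.15. Cd3d, Cd3e and Cd3g lie side by side on chromosome 9, and the peak given to Cd3g also overlaps Cd3d. The coreceptors Cd8a (-0.18), Cd8b1 (-0.11) and Cd4 (-0.29) were all lower, with 5 of their 15 peaks called lower (19.1% of all peaks were) and none higher (17.3% of all). Lck was lower by -0.11.

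Some proximal members were higher in aged hosts. Lcp2, the SLP-76 adaptor, was higher by 0.19 with 7 of 15 peaks higher and 1 lower, Ptprc by 0.16 with 8 of 26 higher and 2 lower, and Plcg1, the phospholipase that makes second messengers, by 0.14. Zap70 (0.11), Tec (0.09), Vav3 (0.14) and Cd226 (0.15) were also called higher. Of 22 alternatives, 21 kept the Zap70 call (0.08, adjusted p = 0.0776 without aged Tprog replicate 2), 21 that of Cd226 (0.09, adjusted p = 0.0699 with gene body peaks only), 17 that of Vav3 and 12 that of Tec. In the calcium branch 13 of 26 peaks were called lower (19.1% of all peaks were) and none higher (17.3% of all). Stim1, the calcium sensor, was lower by -0.26 ± 0.03 (SE) and Ppp3ca, a catalytic subunit of calcineurin, by -0.21 ± 0.03, whereas Orai1 (0.04) and Ppp3cb (0.03) did not pass the test. Of the gene sums named in this and the preceding paragraphs on OTC cells, those of Nfkb1, Nfkbia, Rel, Nfkb2, Prkcq, Bcl10, Malt1, Pag1, Lat, Txk, Cd3e, Cd3g, Cd247, Cd8a, Cd8b1, Cd4, Lck, Lcp2, Ptprc, Plcg1, Stim1 and Ppp3ca were called in all 22 alternatives.

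The single peaks that changed most with age lay outside promoters. A peak 60994 bp from Fyn, the second SRC-family kinase of T cells, at chr10:39307996-39308749, read 1.5 to 12.8 (median 10.1) in aged OTC libraries and 38.0 to 81.3 (median 48.9) in young ones, a log2 difference of -2.56 ± 0.30 (SE). An intragenic Nfkb1 peak at chr3:135619126-135619501 read 30.2 to 105 (median 59.9) against 8.45 to 28.2 (median 18.4), a difference of 1.64 ± 0.30. A peak 15195 bp from Rel, at chr11:23786164-23786907, read 88.7 to 123 (median 106) against 28.5 to 49.4 (median 36.4), a difference of 1.49 ± 0.20. A peak 54377 bp from Prkcq, at chr2:11355603-11356022, read 9.57 to 48.6 (median 37.0) against 67.6 to 114 (median 89.8), a difference of -1.43 ± 0.21. None of these 4 peaks had an aged OTC library overlapping a young one. They were named for the size of their change in these same libraries, so the lack of overlap adds no support. The intragenic peaks of Vav1 (chr17:57309690-57310118, -1.91) and Stim1 (chr7:102317779-102318284, -1.50) also differed, as did one near Lcp2 (chr11:34119542-34119984, 1.34). Assignment of a distant peak to a gene rests on position alone.

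At the promoters of the 3 NF-kB genes printed above, signal was slightly higher in aged hosts, and at that of Trat1 the age difference was 0.05 ± 0.24 (SE, log2, adjusted p = 0.886). The Rel promoter peak (chr11:23769748-23771976) ran from 1731 to 1921 in aged and from 1459 to 1691 in young OTC libraries, without overlap, a difference of 0.23 ± 0.04 (SE, log2, adjusted p = 1.38e-06). The Nfkbia promoter peak (chr12:55491127-55493052) ran from 1929 to 2190 against 1602 to 2011 (0.24 ± 0.04), and that of Nfkb2 (chr19:46304081-46306097) from 2083 to 2446 against 1854 to 2202 (0.18 ± 0.04). Of all 37 member promoter peaks 20 were called with age (54.1%, against 42% of the other 469 member peaks and 29% of all 9074 promoter peaks). Of the 37, 5 were higher and 15 lower, whereas of all 9074 promoter peaks 1498 were higher and 1130 lower. The higher member promoters were those of Rel, Nfkbia, Nfkb2, Lcp2 and Plcg1, and the 15 lower ones are not named here. Within the Zfp219 libraries the values at the Rel, Nfkbia and Nfkb2 promoters were 0.14, 0.13 and 0.12, all called. Within the Dusp5 libraries they were 0.20, 0.05 and 0.11, of which the Nfkbia value was not called.

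With the Zfp219 guide in aged hosts, Nfkb1, Nfkbia, Rel and Themis were lower and Prkcq and Pag1 higher than with OTC. Over 4 states (8 libraries each) 154 member peaks were called (30.4%, against 25.8% of all peaks), 62 higher (12.1% of all) and 92 lower (13.7% of all). As gene sums 31 members were called (64.6%, against 36.8% of all genes), 12 higher (20.2% of all) and 19 lower (16.6% of all). Quantile normalization turned that split to 18 higher and 9 lower. Of the 9 myeloid marker peaks 4 were called higher and none lower with Zfp219, at a summed 1030 to 1265 against 904 to 1159 in aged OTC. Of 7 melanoma marker peaks 4 were lower and none higher, at a summed 913 to 1390 against 1248 to 1498. Their part in the result was not tested. Both this comparison and the age comparison use the aged OTC libraries, so a gene that is high in aged OTC enters both with opposite signs, and no overlap between them is read as a result.

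**Figure D5:**
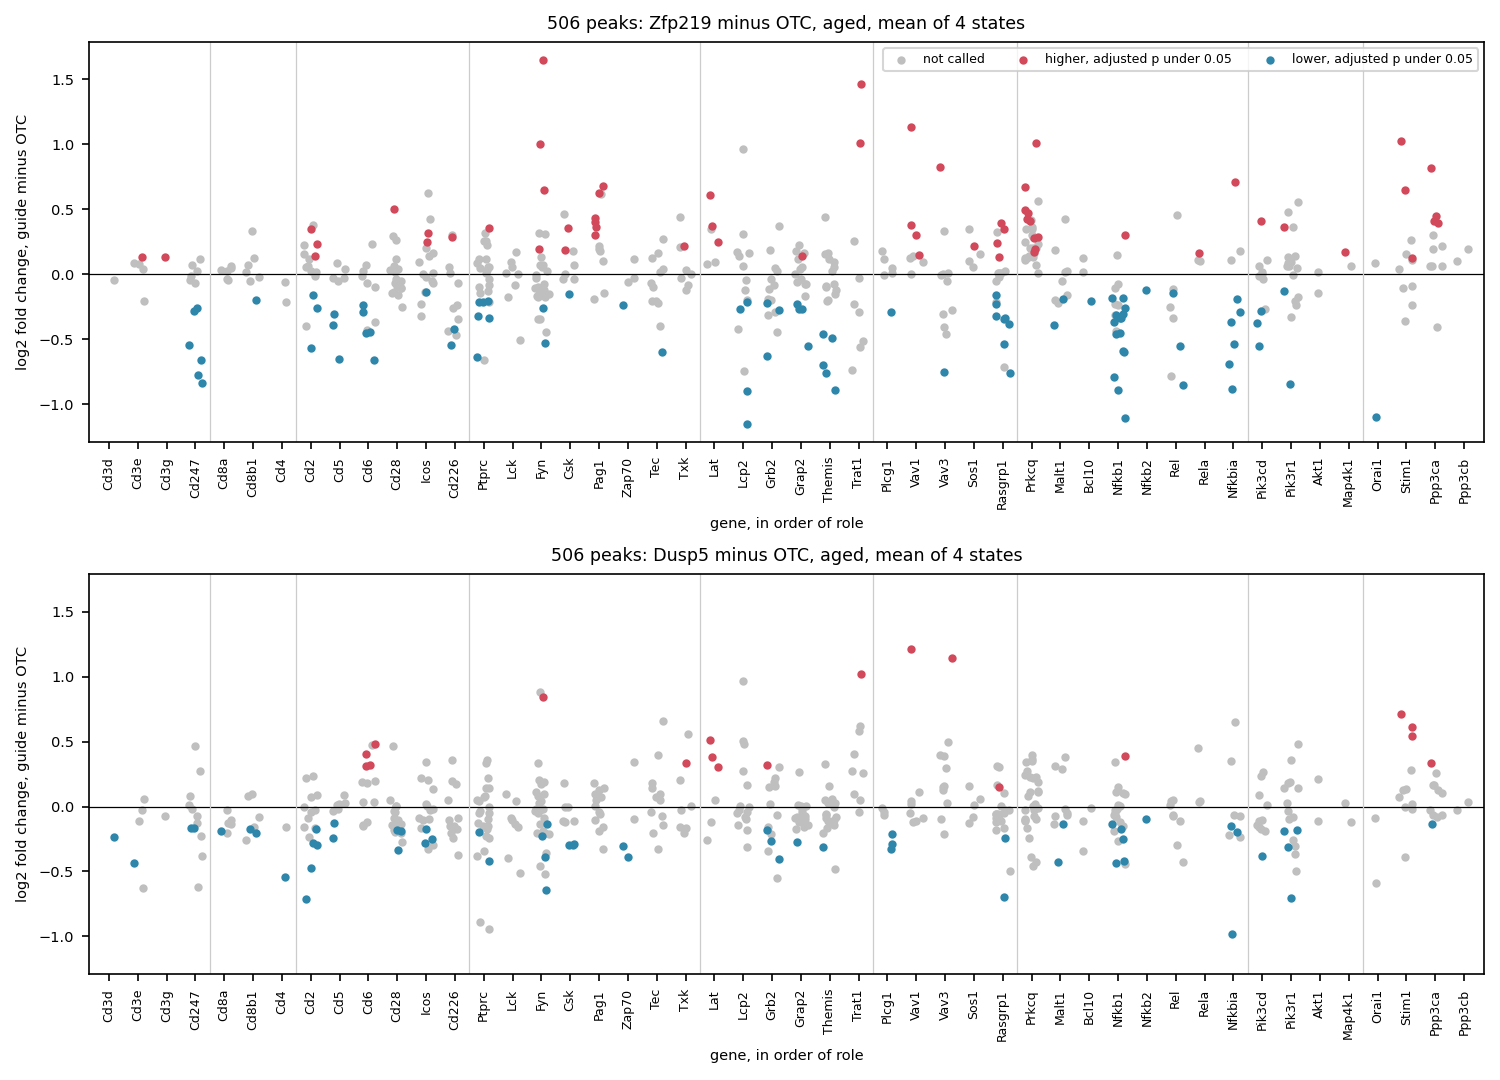
Log2 fold change of Zfp219 (top) and Dusp5 (bottom) minus OTC for each of the 506 peaks (points), by gene, as the mean of 4 states in aged hosts, with called peaks coloured. With Zfp219, 15 Nfkb1 peaks are called lower and 1 higher, and 10 Prkcq peaks higher and none lower.

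Nfkb1 summed to 6654, 7003 and 7358 (lowest, median, highest) in the 8 aged Zfp219 libraries against 8182, 8451 and 9416 in the 8 aged OTC libraries. The ranges did not overlap, and the log2 difference was -0.30 ± 0.02 (SE, adjusted p = 3.92e-31) with 15 peaks lower and 1 higher. Nfkbia ran from 3995 to 5078 (median 4465) against 5046 to 5900 (median 5352), a difference of -0.28 ± 0.02, and Rel was lower by -0.20 ± 0.03, Cd247 by -0.20, Themis by -0.22 ± 0.03, Vav3 by -0.20 ± 0.05, Grb2 by -0.16 and Cd226 by -0.14. Prkcq ran from 5070 to 6216 (median 5869) against 4710 to 5022 (median 4914), with no overlap, and was higher by 0.23 ± 0.02 with 10 peaks higher. Pag1 was higher by 0.24 ± 0.03, Vav1 by 0.19, Ppp3ca by 0.14, Rela by 0.14, Map4k1, a kinase that restrains receptor signalling, by 0.14, Sos1 by 0.12 and Stim1 by 0.11. These gene sums were called in all 24 alternatives. Lat was higher by 0.20 and was 0.09 (adjusted p = 0.141) when its gene body peaks alone were used.

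The promoter peaks of Rel (-0.15), Nfkbia (-0.19) and Nfkb2 (-0.12) were each lower with Zfp219 in aged hosts. Among single peaks, the Fyn peak described above read 17.2 to 59.7 (median 23.7) with Zfp219 against 1.5 to 12.8 (median 8.63) in OTC, a log2 difference of 1.65 ± 0.27 (SE). The Rel peak read 48.1 to 76.3 (median 65.7) against 88.7 to 149 (median 117), a difference of -0.85 ± 0.18, and neither pair of ranges overlapped. Both peaks were named by size in the age comparison, which shares aged OTC libraries with this one, so this adds no support. In aged Ttad alone, 45 member peaks were called between Zfp219 and OTC (8.23% of all peaks), 19 higher and 26 lower, against 15 and 34 with edgeR. Without OTC Ttad replicate 1, Zfp219 Ttad replicate 1 or Zfp219 Ttad replicate 2 that count was 22, 23 and 18.

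In young hosts 59 member peaks were called with the Zfp219 guide (11.7%, against 7.07% of all), 6 higher (1.92% of all) and 53 lower (5.15% of all). Quantile normalization gave 9 higher and 35 lower. Of these, 10 of the 23 Nfkb1 peaks and 6 of the 11 peaks of Pik3cd, the leukocyte PI3 kinase catalytic subunit, were lower. Nfkb1 summed to 4845, 5345 and 5739 (lowest, median, highest) in young Zfp219 against 4954, 6185 and 6652 in young OTC libraries, so the ranges overlapped over all states. In Tprog and in Ttran every Zfp219 library was below every OTC library, and in Tterm the ranges overlapped. This comparison uses other libraries than the aged one. The test of whether the Zfp219 difference changed with age called 60 member peaks (11.9%, against 9.11% of all), 33 more positive and 27 more negative in aged hosts.

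With the Dusp5 guide in aged hosts, Cd4, Zap70, Cd3d, Plcg1 and Csk were lower than with OTC. At the peak level 78 were called (15.4%, against 12.2% of all), 19 higher (4.35% of all) and 59 lower (7.87% of all). As gene sums 31 members were called (64.6%, against 20.6% of all genes), 3 higher (6.84% of all) and 28 lower (13.7% of all), with a median log2 difference of -0.09 over members. Quantile normalization left 8 higher and 5 lower, with a median of -0.01. Of 7 melanoma marker peaks 3 were lower and none higher with Dusp5, at a summed 955 to 1345 against 1248 to 1498 in aged OTC. Of 34 CD8 T cell marker peaks, on a list that shares genes with the members, 10 were lower and none higher. Their summed signal was 12113 to 13456 with Dusp5 against 13793 to 18793 in aged OTC. Of 6 peaks of the CD4 and regulatory T cell list, which includes Cd4, 3 were lower and none higher. The part of these markers in the result was not tested. The decreases called in all 24 alternatives were those of Cd4, Zap70, Cd3d, Plcg1 and Csk.

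Cd4 summed to 168, 262 and 368 (lowest, median, highest) in aged Dusp5 against 240, 391 and 539 in aged OTC libraries, a difference of -0.51 ± 0.07 (SE, log2). Its ranges overlapped over states, but within each of the 4 states every Dusp5 library was below every OTC library. Zap70 (chr1:36761798-36782821), the kinase that docks on the phosphorylated receptor, ran from 1360 to 1786 (median 1521) against 1722 to 1948 (median 1797), a difference of -0.24 ± 0.03 with 2 of 4 peaks lower. Cd3d was lower by -0.23, Plcg1 by -0.19 and Csk, the kinase that inhibits LCK, by -0.17. The members that rose were Trat1 (0.30, lost without Dusp5 Ttad replicate 2 at 0.25, adjusted p = 0.0506), Lat (0.16) and Cd6 (0.08). Lat and Cd6 were 0.05 each, and not called, when gene body peaks alone were used. In young hosts 22 member peaks were called with Dusp5 (3.82% of all), and 10 without young Dusp5 Tprog replicate 2 and 13 without young OTC Tprog replicate 2.

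A wider list of 51 other pathway genes, among them the NFAT genes and the MAP kinases, held 500 peaks. Between Tprog and Tterm 122 of these were called in aged OTC (24.4%, against 20.1% of all peaks; 49 higher, 73 lower) and 148 in young OTC (29.6%, against 26.5%; 81 higher, 67 lower). Between Ttad and Tterm 31 were called (6.2%, against 7.28%). With age 222 were called (44.4%, against 36.5%), 115 higher and 107 lower. With Zfp219 in aged hosts 155 were called (31%, against 25.8%), 56 higher and 99 lower, and with Dusp5 in aged hosts 83 (16.6%, against 12.2%), 15 higher and 68 lower.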

How the data were processed

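Per the submitters' processing notes, reads were handled with Bowtie2 2.2.9, Picard 2.8.0, SAMtools 1.3.1, MACS2 2.1.1 and DESeq2 1.28.1 on mm10; parameters, duplicate handling and any shift of insertion sites are not given in the sources used here. The authors deposited a normalized signal per peak. Its values are whole multiples of a step in every library (100% of values within 0.01), so they equal read counts divided by a size factor. The main test was limma 3.58.1 (R 4.3.3) on log2(signal + 1) with a trend and a mean per group over all 48 libraries, adjusted by Benjamini-Hochberg over 53868 peaks or, for sums, 15022 genes. Fold changes on this scale understate those of weak peaks. Alternatives were edgeR 4.0.16 on recovered reads, leaving out the weakest 25% of peaks, adding 8 in place of 1 before the log, quantile and TMM scaling, gene body peaks only, the compared groups only, a replicate block and each library left out. The scripts were tested on simulated data. Tables were handled in Python 3.11.15 with pandas 2.3.3.

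Named by rule were each member's gene sum, strongest peak and promoter peak (over the RefSeq window from 250 bases before to 50 after the start), and per comparison the 5 called peaks with the largest positive and the 5 with the largest negative change, each from another gene. Members and lists were chosen with earlier results of these data known. Over all peaks, same-numbered replicates did not deviate together (r of -0.015 to 0.017 over 57 pairs). Between groups of 2, both numbers give the same r by construction. Counting noise of weak peaks can also hide a shared pool, so this check cannot exclude that numbers pair libraries. No molecular identifiers were counted, so depth speaks to counting error only. Some genes of the wider pathway list and the marker lists are not reported here.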

Additional observations from a re-analysis of the deposited data

Results flagged for a closer look

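Differences that changed with the age of the host were singled out by a test of the difference itself (limma, adjusted over all peaks). The change of the Tprog minus Tterm difference with age was called at 10 member peaks. On the log2 scale, aged minus young, it was 0.86 at the Ppp3ca peak chr3:136687718, -2.05 at the Nfkb1 peak chr3:135698403, -1.05 at the Txk peak chr5:72723499, -0.86 at the Sos1 peak chr17:80468276, -0.81 at the Lcp2 peak chr11:34036273 and -0.66 at the Fyn peak chr10:39376383. Those of Sos1 and Lcp2 were called in all 16 alternatives. The count itself was 6 without aged Tprog replicate 2, Tterm replicate 1 or Tterm replicate 2, 5 without young Tprog replicate 1 or Tterm replicate 3, and 4 without young Tprog replicate 2 or Tterm replicate 2.

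The change of the Zfp219 minus OTC difference with age was called at 60 member peaks. It was positive at peaks of Vav1 (chr17:57309690, 1.86), Fyn (chr10:39307996, 1.76), Csk (chr9:57652484, 1.05), Ppp3ca (chr3:136697542, 1.01) and Rela (chr19:5626575, 0.99). It was negative at peaks of Lcp2 (chr11:34119542, -1.35), Ptprc (chr1:138009314, -1.15), Themis (chr10:28882945, -1.05), Rel (chr11:23786164, -0.97) and Cd6 (chr19:10824803, -0.86). Both tests use the aged OTC libraries that the age comparison uses. No group holds 4 or more libraries, so single libraries were not tested for standing apart.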

How the results depend on the processing

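Of 279 named results, 122 kept their direction and call under every alternative and 157 did not under at least 1. Counts of member peaks moved by over 1.5 times as follows. With gene body peaks only, Tprog against Tterm gave 69 (aged) and 91 (young), Ttran against Tterm 11 and 25, Ttad against Tterm 19, Ttad against Tprog 27, age 136, Zfp219 94 and Dusp5 51 in aged hosts, Zfp219 in aged Ttad 28 and age by state 6, with fewer peaks tested. With edgeR aged Ttran against Tterm gave 13 and age by state 16. With the compared groups alone, Ttran against Tterm gave 6 (aged) and 71 (young) and age by state 29. With quantile normalization Dusp5 in aged hosts gave 48 peaks and 13 genes, and age by state 5. Ttad against Tterm gave 12 peaks within Zfp219 libraries, a comparison added after seeing the data.

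Signs of called gene sums turned under quantile normalization for Cd5 in aged Tprog against Tterm (0.012), for Ptprc (0.010), Fyn (0.048), Grap2 (0.052) and Pik3cd (0.022) with Zfp219, and for Cd5 (0.025), Ptprc (0.037), Grap2 (0.029), Pik3cd (0.0038) and Pik3r1 (0.0016) with Dusp5, in aged hosts. They turned with gene body peaks only for Cd5 (0.19) and Ppp3ca (0.050) in aged and Cd2 (-0.012) and Lcp2 (-0.069) in young Tprog against Tterm, Icos in Ttad against Tterm (0.063), Lcp2 with Zfp219 (0.017) and Cd5 with Dusp5 (0.026). The cause was not tested.

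Leaving out 1 library at a time gave, for member peaks, 64 to 73 (aged) and 105 to 135 (young) for Tprog against Tterm, 5 to 17 and 24 to 35 for Ttran against Tterm, 16 to 30 for Ttad against Tterm, 16 to 33 for Ttad against Tprog, 201 to 213 for age, 133 to 145 and 62 to 78 for Zfp219 and Dusp5 in aged hosts, 46 to 58 and 10 to 21 in young hosts, 18 to 42 for Zfp219 in aged Ttad, 4 to 10 for age by state and 43 to 64 for age by Zfp219. For genes it gave 12 to 17, 18 to 24, 5 to 6, 28 to 31, 28 to 31 and 26 to 32, in the order Tprog against Tterm (aged, young), Ttad against Tterm, age, Zfp219 and Dusp5. A replicate block gave 106 (aged) and 140 (young) peaks for Tprog against Tterm and 215 for age, and moved no count of member calls by over 1.5 times.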
